A study of Mus musculus with 12 samples.

Results

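The cytosolic ribosomal protein genes were taken as the symbols of the deposited expression table that begin with Rpl or Rps and continue as a ribosomal protein name, including the stalk proteins Rplp0, Rplp1 and Rplp2, Rpsa, and paralogs such as Rpl10l, Rpl39l and Rps27l. This name rule, which uses no measured value, gave 88 of 28643 symbols. Of these, 50 belong to the large subunit, 35 to the small subunit and 3 to the stalk. GENCODE M21 (build GRCm38) lists 83 of them as protein-coding and 5 (Rps4l, Rpl6l, Rpl32l, Rps3a2 and Rps3a3) as pseudogenes. Pseudogenes named with -ps were left out by the rule.

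Round spermatids, the haploid germ cells that follow meiosis, were isolated from testes of 8-week-old male mice by FACS, with cycloheximide present throughout to hold ribosomes on their mRNA. Control animals were heterozygous (Igf2bp3+/-) and knockout animals homozygous (Igf2bp3-/-) for a frameshift made with Cas9 in the gene of the RNA-binding protein IGF2BP3, injected into C57BL/6 zygotes, so every animal carried at least 1 disrupted copy in all its cells and no wild-type animal was included. Male Igf2bp3-/- mice range from sub-fertile to infertile and have smaller testes, and by the methods the authors chose those with reduced fertility for this part of the work. The knockout animals were thus selected by phenotype, and the cells came from testes that differed in more than the targeted gene. RNA-seq measured total polyadenylated RNA of the sorted cells. RNC-seq (sequencing of RNA in ribosome-nascent chain complexes) measured mRNAs of the sucrose gradient fractions described as carrying 4 or more ribosomes. There were 3 replicates of each genotype in each assay, 12 libraries in all. The values are FPKM, a read density per transcript length and per library, so levels of different genes can be set side by side, but every value is relative to the other transcripts of its library.

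A ribosome is built from ribosomal RNA and a fixed set of proteins, which cells make in step with each other. Their mRNAs are short, abundant and, in somatic cells, begin with a pyrimidine-rich tract (the 5′ terminal oligopyrimidine, or TOP, tract) through which LARP1 and the kinase mTORC1 control their translation as a group. Several ribosomal proteins are encoded on the X chromosome, which is silenced in male meiosis and stays largely repressed afterwards, and male germ cells express autosomal paralogs of them.

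The ribosomal protein genes took 1.13 to 1.51% of the summed FPKM in the RNA-seq libraries and 1.78 to 2.65% in the RNC-seq libraries. Igf2bp3+/- RNA-seq replicate 3 (1.13%) and Igf2bp3-/- RNC-seq replicate 2 (1.78%) had the lowest share of their assay, and the counts and medians of the family are given with and without them. A single transcript, CT010467.1, took 5.68 to 19.4% of the FPKM of a library. Igf2bp3 itself stood at 38.2, 38.6 and 33.4 FPKM in Igf2bp3+/- and at 31.7, 32.5 and 31.4 FPKM in Igf2bp3-/- RNA-seq. Every Igf2bp3-/- value thus lay below every Igf2bp3+/- value, which held for 8.68% of all genes. In RNC-seq it stood at 31.4 to 43.1 FPKM over both genotypes, with overlap between them. Because the allele is a frameshift, the RNA level of Igf2bp3 does not check the genotype labels. The 7 round spermatid markers summed to between 950 and 1657 FPKM in every library, those of elongating spermatids to 8630 FPKM or more, and no marker of either list was at 0 in all libraries. Read counts were not used here and the depth of the libraries is unknown.

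Most ribosomal protein transcripts were abundant in round spermatids. The median of the 88 genes was 50.6 FPKM in Igf2bp3+/- RNA-seq, where the median of all symbols was 0.552 FPKM. In that group 74 of the 88 genes had a mean of at least 10 FPKM, 7 lay between 1 and 10 and 7 lay below 1. The highest mean levels over the 6 RNA-seq libraries were those of Rplp0, the stalk base protein (378 FPKM), Rpl10l (358 FPKM), Rpl41, the smallest ribosomal protein (311 FPKM), Rpl13 (302 FPKM) and Rpl39l (245 FPKM). The lowest were those of Rpl3l, a paralog known from striated muscle (0.0177 FPKM), Rpl39 (0.178 FPKM), Rpl36a (0.273 FPKM), Rps3a2 (0.352 FPKM) and Rpl32l (0.539 FPKM). Rpl10l and Rpl39l, paralogs of X-linked genes, were thus among the 5 highest of the family, and Rpl39 and Rpl36a, both X-linked, among the 5 lowest.

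All 4 X-linked members had low RNA. Rpl10 (chrX:74270812-74273135), a large subunit protein that joins late in assembly, stood at 1.43, 2.16 and 1.70 FPKM in the Igf2bp3+/- RNA-seq libraries and at 2.46, 2.25 and 2.90 in the Igf2bp3-/- libraries. Its intronless paralog Rpl10l (chr12:66283379-66284401) stood at 275, 348 and 277 FPKM and at 386, 446 and 416 FPKM. In each RNA-seq library Rpl10l made up 99.3 to 99.5% of the FPKM of the pair, and the 2 genotypes did not overlap for either gene. The values of Rpl10 are uncertain, since its 7 near-identical copies in the annotation (95% identity or more over 50% of the transcript or more) carried 94.7% as much FPKM as the gene itself.

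The other X-linked genes showed the same order with their paralogs. Rpl39 (chrX:37082520-37085402), a small protein of the peptide exit tunnel, stood at 0.501, 0.155 and 0.119 FPKM in Igf2bp3+/- RNA-seq, and its paralog Rpl39l (chr16:10170226-10174911), known from male germ cells, at 237, 256 and 190 FPKM. Rps4x (chrX:102184941-102189394), a small subunit protein, stood at 0.290, 0.375 and 0.451 FPKM, and Rps4l (chr6:148354656-148355598) at 129, 129 and 127 FPKM. Rps4l is annotated as a transcribed processed pseudogene, yet its RNA was 345 times that of Rps4x in this group, and neither Rps4l nor Rpl39l has a near-identical copy among the annotated genes. Rpl36a (chrX:134585654-134588062), a large subunit protein, stood at 0.674, 0.351 and 0.188 FPKM. Its autosomal relative Rpl36al, whose name falls outside the rule, is described with the related genes at the end.

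The autosomal pairs were less one-sided. Rpl22l1 exceeded Rpl22, both large subunit proteins outside the catalytic core, with 117, 131 and 80.3 FPKM against 6.66, 13.7 and 4.40 FPKM in Igf2bp3+/- RNA-seq. Rps27l was the minor partner of Rps27, a small subunit zinc-finger protein, at 31.7 to 36.0% of the FPKM of the pair in these libraries. There Rpl7l1 stayed at 2.78 to 3.38% beside Rpl7 and Rpl3l at 0 to 0.160% beside Rpl3. The order of the partners was the same in all 12 libraries for each of the 7 pairs, as the plot of the pairs by library shows.

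**Figure D1:**
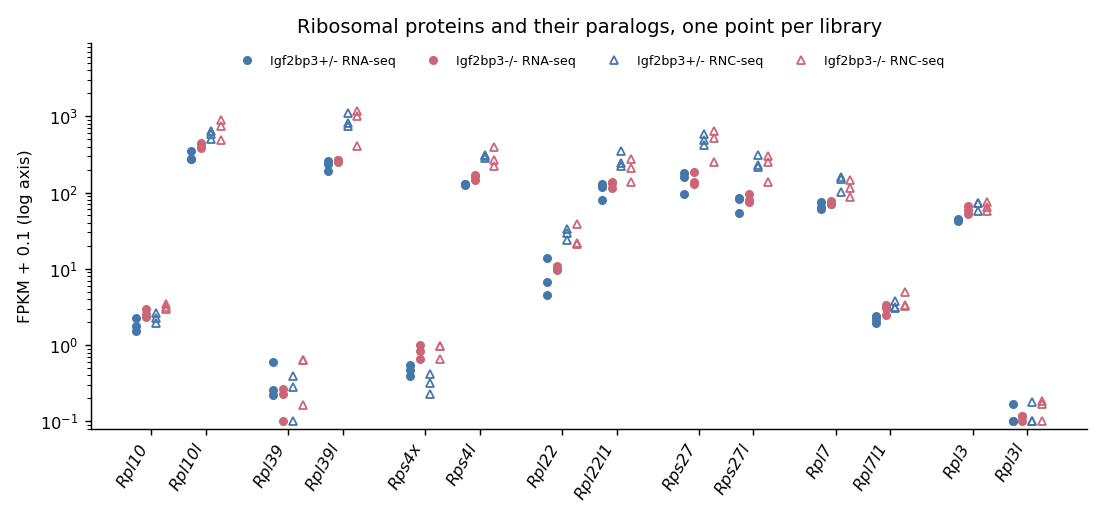
FPKM + 0.1 on a log axis for the 7 parent genes and their paralogs, 1 point per library (circles, RNA-seq; triangles, RNC-seq; blue, Igf2bp3+/-; red, Igf2bp3-/-). Rpl10l, Rpl39l and Rps4l lie far above the X-linked Rpl10, Rpl39 and Rps4x, Rpl22l1 lies above Rpl22, and Rps27l, Rpl7l1 and Rpl3l lie below their parents.

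The letters around the start sites show how these genes begin. RefSeq windows (GRCm38.p6) were at hand for 64 of the 88 genes, and CTTTC, a short pyrimidine run of the kind found in TOP tracts, was searched on both strands within 30 bases of the annotated start. It was present on the transcript strand in 22 of the 64 genes (34.4%), against 9.18% of all 27025 genes with a window, and on either strand in 45.3% against 16.9%. The longer forms CTTTCC (18.8% of the ribosomal protein genes, 3.40% of all genes) and CTCTTTC (12.5% and 0.969%), which contain CTTTC, were also counted on the transcript strand. The lines below give 30 bases from 10 before to 20 after the annotated start, with each CTTTC in capitals, first for members that hold it, shown as examples of the run at or near the start, and then for the X-linked parents Rpl39 and Rpl10, for Rpl10l and for Rps6, which do not hold it in these 30 bases.
Rpl35: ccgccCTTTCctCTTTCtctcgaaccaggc
Rpl28: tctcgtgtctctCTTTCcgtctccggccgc
Rplp2: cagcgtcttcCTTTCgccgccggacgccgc
Rpl38: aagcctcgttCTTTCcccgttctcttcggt
Rps27: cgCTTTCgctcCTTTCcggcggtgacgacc
Rpl39l: aggcCTTTCcggatttccggtggtcgccat
Rpl39: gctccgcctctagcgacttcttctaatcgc
Rpl10: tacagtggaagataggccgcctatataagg
Rpl10l: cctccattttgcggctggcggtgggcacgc
Rps6: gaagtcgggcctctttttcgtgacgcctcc
The windows lie at chr2:39005112-39005141 (Rpl35, minus strand), chr7:4792955-4792984 (Rpl28, plus), chr7:141447641-141447670 (Rplp2, plus), chr11:114668570-114668599 (Rpl38, plus), chr3:90213629-90213658 (Rps27, minus), chr16:10170218-10170247 (Rpl39l, plus), chrX:37085203-37085232 (Rpl39, minus), chrX:74270806-74270835 (Rpl10, plus), chr12:66284382-66284411 (Rpl10l, minus) and chr4:86857348-86857377 (Rps6, minus). The starts are those of the annotation and were not measured in these cells. Rpl39l thus held the letters that Rpl39 lacked in the same window, and Rpl10l, like Rpl10, lacked them. For Rps27 and Rps27l the order was the reverse, since Rps27 held CTTTC and no annotated window of Rps27l did in these 30 bases. The exact string misses other pyrimidine runs, such as the one across the annotated start of Rps6, so a member without CTTTC may still have a TOP tract.

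Polysome loading is the log2 ratio of RNC-seq to RNA-seq within a genotype (the translational efficiency on a log scale). It shows which transcripts were enriched in the gradient fractions described as carrying 4 or more ribosomes. The ribosomes on each transcript were not counted, so an effect of transcript length on fractions or libraries cannot be told apart from loading. In Igf2bp3+/- spermatids the ribosomal protein transcripts stood out as loaded. Of the 87 genes tested (Rpl3l was below the floor of a mean of 0.1 FPKM), 78 were higher in RNC-seq at a limma adjusted p under 0.05 and 0 were lower, also at an unadjusted p under 0.05, whereas 18.2% of all 18414 genes tested were higher and 25.2% lower. Without Igf2bp3+/- RNA-seq replicate 3 there were 75 members higher, where 13% of all genes were, with a median of 1.05. With each library scaled to the same FPKM sum, 64 members were higher and 0 lower, and the calls over all genes shifted from 3352 higher and 4641 lower to 1872 and 7187. The median loading of the family was 1.19 on the log2 scale, a 2.29-fold ratio, and that of all genes was -0.10. For 79 of the 87 genes, the RNC-seq libraries all lay above the RNA-seq libraries, which held for 22.7% of all genes, and for 0 all lay below (32.9% of all genes).

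The family's loading covered both subunits. Among large subunit genes 43 of 49 were higher with a median of 1.07, among small subunit genes 32 of 35 with a median of 1.26, and all 3 stalk genes were higher. The 9 genes that did not pass were Rpl10, Rpl32l, Rpl36, Rpl36a, Rpl39, Rpl4, Rps3a2, Rps3a3 and Rps4x. Those 9 include all 4 X-linked members and 3 of the 5 annotated pseudogenes, most of them at low FPKM, whereas Rpl36 and Rpl4 were well expressed. The 3 pseudogenes, Rpl32l, Rps3a2 and Rps3a3, are near-identical copies of Rpl32 or Rps3a1, so their reads may not be separable from those of these genes.

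Rpl39l was among the most loaded members of the family. It stood at 237, 256 and 190 FPKM in RNA-seq and at 1089, 747 and 819 FPKM in RNC-seq of Igf2bp3+/- cells. The assays did not overlap, and the difference was 1.95 ± 0.17 (log2 ± SE, n = 3 per assay, limma adjusted p = 0.000134), a 3.87-fold ratio.

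Rps14, a small subunit protein at the platform, was loaded to the same extent. Its levels were 166, 184 and 134 FPKM in RNA-seq and 696, 601 and 589 FPKM in RNC-seq, again without overlap. The difference was 1.97 ± 0.15 (limma adjusted p = 7.55e-05). Rpl32l had the highest estimate, 2.09 ± 0.78, but from levels of 0 to 1.01 FPKM in RNA-seq, and it did not pass (limma adjusted p = 0.0599).

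Of the members at 1 FPKM or more, Rpl4, Rpl10 and Rps2 had the lowest loadings. Rpl4, a large subunit protein with an extension into the exit tunnel, was at 69.4, 70.4 and 67.1 FPKM in RNA-seq and at 84.2, 71.7 and 82.2 FPKM in RNC-seq, with a difference of 0.20 ± 0.11 (limma adjusted p = 0.185). Its RNC-seq values were all slightly above its RNA-seq values, and the difference turned to -0.15 with each library scaled to the same FPKM sum. Rps2, near the mRNA entry of the small subunit, was at 75.2, 75.2 and 73.1 FPKM and at 103, 98.9 and 94.4 FPKM, with a difference of 0.41 ± 0.10 (limma adjusted p = 0.0131). Among the stalk proteins, which recruit elongation factors, Rplp0 had a loading of 0.50 ± 0.11, Rplp1 of 1.25 ± 0.15 and Rplp2 of 1.39 ± 0.16. Genes on the same strand overlap 7.87% of the exonic bases of Rpl4 (Gm22455 and Snord16a), 7.32% of those of Rps2 (Snhg9 and Snora64) and 6.61% of those of Rplp2 (Snora52), and reads over the shared part cannot be assigned with certainty.

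The paralogs of the X-linked genes were loaded and the parents were not shown to be. In Igf2bp3+/- cells Rpl10l had a loading of 0.95 ± 0.14 (limma adjusted p = 0.00125) and Rps4l of 1.22 ± 0.10 (limma adjusted p = 0.000101). Rpl10 had a value of 0.30 ± 0.22 (limma adjusted p = 0.306), Rps4x of -0.57 ± 0.34 (limma adjusted p = 0.20) and Rpl39 of -0.54 ± 0.60 (limma adjusted p = 0.502). The differences between paralog and parent were not tested. Rps4l RNA, from a gene annotated as a pseudogene, thus reached 298, 315 and 285 FPKM in the RNC-seq libraries, with no overlap with its RNA-seq levels. Of the autosomal pairs, Rpl22 (1.95 ± 0.36) and Rpl22l1 (1.31 ± 0.22), as well as Rps27 (1.82 ± 0.23) and Rps27l (1.79 ± 0.21), were all higher in RNC-seq at a limma adjusted p under 0.05. Rpsa, the laminin receptor protein of the small subunit, had a loading of 0.83 and Rps6, the substrate of S6 kinase, of 0.99.

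**Figure D2:**
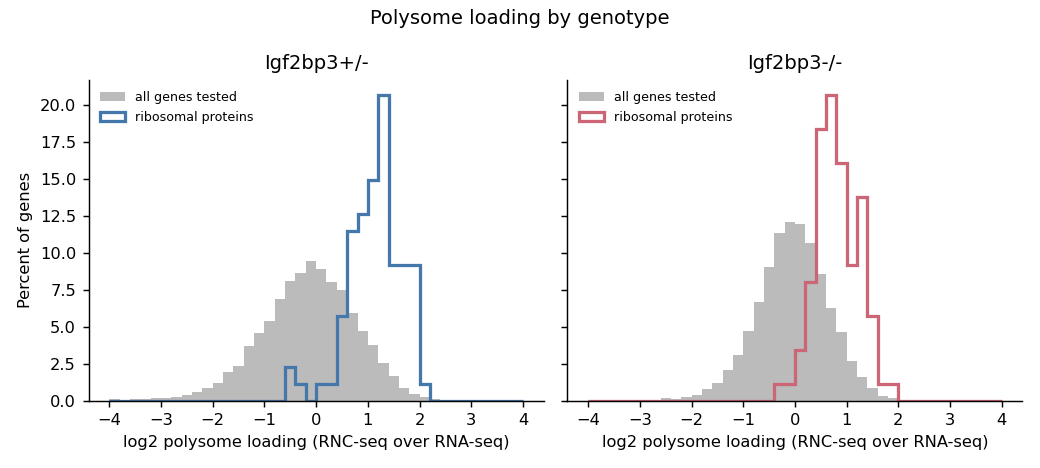
Histograms of log2 polysome loading (RNC-seq over RNA-seq, in bins of 0.2) as the percent of genes in each bin, for all 18414 genes tested (grey) and the 87 ribosomal protein genes (outline), in Igf2bp3+/- (left) and Igf2bp3-/- (right) cells; all genes beyond 4 in either direction are drawn in the outermost bins. The outlines have medians of 1.19 and 0.77, and the grey distributions have medians of -0.10 and -0.04.

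Transcript length moves with loading, so the family was set beside genes with a longest annotated transcript of like length. For some members that transcript is far longer than the coding region, as for Rps15a (5179 and 390 bases) and Rps24 (4059 and 399 bases). These classes may therefore not reflect the mRNA lengths in these cells. By the longest annotated transcript, the 40 members under 1000 bases had a median loading of 1.24 in Igf2bp3+/- cells where all genes of that class had 0.55, the 33 members of 1000 to 2000 bases had 1.00 against 0.13, and the 14 members of 2000 bases or more had 1.18 against -0.41. The median of the family lay above that of all genes in each of the 3 classes. The share of all genes called higher was 36.3%, 24.2% and 8.44% in these classes, and the calls among members were 32, 32 and 14.

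Members with longer coding regions tended to have lower loading. The split by coding length was chosen after the values were seen and used the 74 members with an annotated coding region and a mean RNA-seq level of at least 10 FPKM. In Igf2bp3+/- cells the median loading was 1.35 for 24 members with under 400 coding bases, 1.19 for 29 members with 400 to 600 and 0.99 for 21 members with 600 or more. All genes of these coding classes had medians of 0.651, 0.412 and -0.345. Spearman's rho between coding length and loading was -0.47 over the 74 members in Igf2bp3+/- cells and -0.66 in Igf2bp3-/- cells. Over all 12858 genes with a coding region it was -0.54 and -0.52. Without Igf2bp3+/- RNA-seq replicate 3 the first value over the members was -0.34, with class medians of 1.17, 1.05 and 0.90, and without Igf2bp3-/- RNC-seq replicate 2 the second was -0.71. By the longest annotated transcript the relation was weaker, with rho of -0.18 and -0.29 over the 75 members at this level. The members share the same libraries and are not independent, so these are descriptions without a test. Rpl4 (1257 coding bases), Rpl3 (1209), Rplp0 (951) and Rps2 (906) had loadings of 0.20, 0.63, 0.50 and 0.41 in Igf2bp3+/- cells, whereas Rpl39l (153 coding bases) and Rps27 (252) had 1.95 and 1.82. Other members lay off this order, such as Rpl41, which has 138 coding bases and a loading of 1.19, and Rpl15, with 612 and 1.85.

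**Figure D3:**
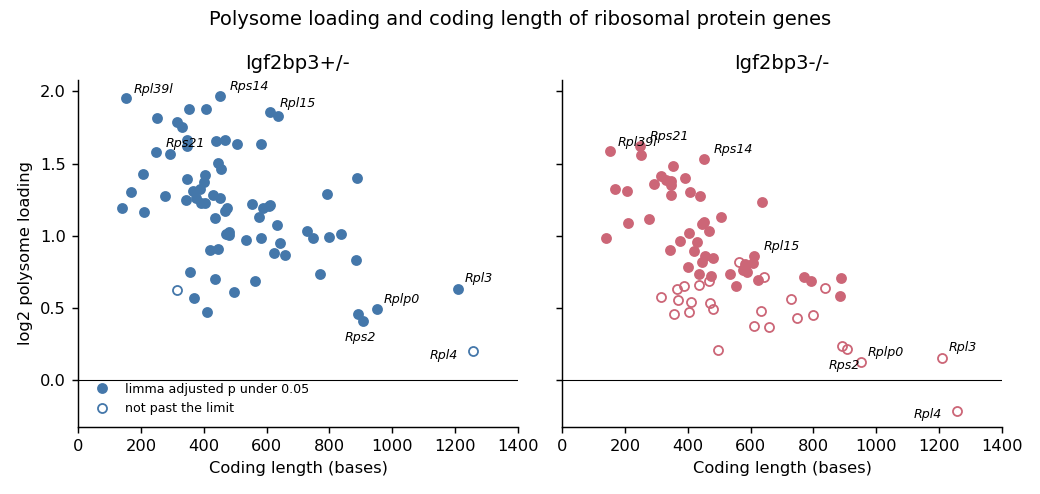
Log2 polysome loading of the 74 ribosomal protein genes with a mean of at least 10 FPKM in RNA-seq, against the longest annotated coding length in bases, in Igf2bp3+/- (left) and Igf2bp3-/- (right) cells; filled points passed a limma adjusted p of 0.05. Loading tends to be lower for longer members in both genotypes, and Rpl4 falls below 0 in Igf2bp3-/- cells.

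Members with and without the CTTTC letters had close medians of loading. The string misses other pyrimidine runs, such as that of Rps6, so this is not a split by TOP tract. The median loading in Igf2bp3+/- cells was 1.10 for the 22 members with CTTTC near the start and 1.26 for the 41 tested members with a window but no CTTTC. In Igf2bp3-/- cells the medians were 0.82 and 0.81.

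In Igf2bp3-/- spermatids ribosomal protein transcripts were loaded as well, with a lower median. Of the 87 genes, 52 were higher in RNC-seq at a limma adjusted p under 0.05 and 0 were lower, also at an unadjusted p under 0.05, where 10.2% of all genes were higher and 11% lower. All RNC-seq libraries lay above the RNA-seq libraries for 64 members (19.2% of all genes) and below them for 1, Rpl4 (21.5%). With each library scaled to the same FPKM sum, 30 members were higher and 1, Rpl4, lower, and the calls over all genes shifted from 1873 higher and 2017 lower to 939 and 3516. The median loading was 0.77, a 1.70-fold ratio, and that of all genes was -0.04. Large subunit genes (24 of 49 higher, median 0.71) and small subunit genes (26 of 35, median 0.84) were both represented, and of the stalk Rplp1 and Rplp2 passed. The count depends on the libraries. Without Igf2bp3-/- RNC-seq replicate 2 it was 74 with a median of 0.95, where 17% of all genes were higher, and leaving out any other single library of this genotype gave 16 to 31, where 2.55 to 5.76% of all genes were higher.

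Rps21 had the highest loading in this genotype among members of at least 1 FPKM. This small subunit protein stood at 21.4, 17.5 and 13.01 FPKM in RNA-seq and at 59.0, 34.2 and 71.3 FPKM in RNC-seq. The assays did not overlap and the difference was 1.62 ± 0.29 (limma adjusted p = 0.00648).

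Rpl39l and Rps27 followed. Rpl39l stood at 251, 268 and 268 FPKM in RNA-seq and at 1019, 402 and 1187 FPKM in RNC-seq, a difference of 1.58 ± 0.35 (limma adjusted p = 0.0140), with replicate 2 well below the other RNC-seq libraries but above all RNA-seq libraries. Rps27 had a difference of 1.56 ± 0.31 (limma adjusted p = 0.0103). At the low end, Rpl4 had -0.21 ± 0.14, Rplp0 0.13 ± 0.16 and Rpl3, which lies close to the peptidyl transferase centre, 0.15 ± 0.17, and none of these passed. With each library scaled to the same FPKM sum, Rplp0 and Rpl3 turned to -0.15 and -0.13. Rpl4 stood at 81.1, 75.5 and 80.7 FPKM in RNA-seq and at 71.2, 67.7 and 65.8 in RNC-seq, so all its RNC-seq values lay below its RNA-seq values. Rpl36a was called higher (1.84 ± 0.56, limma adjusted p = 0.0441), but at 0 to 0.238 FPKM in RNA-seq and 0.433 to 1.40 in RNC-seq, levels close to the floor of the test.

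Total RNA of the family was compared between genotypes next. In RNA-seq 74 of 87 ribosomal protein genes had a higher mean log2 level in Igf2bp3-/- cells, with a median difference of 0.23 (1.18-fold), where 56.2% of all 20352 genes tested had a positive difference and their median was 0.05. Rpl15 was the only member past the adjusted limit, as were 0.197% of all genes in this direction, and 0 members were lower (0.059% of all genes). At an unadjusted p under 0.05, 33 members were higher (10.4% of all genes) and 0 lower (5.32%). For 36 members every Igf2bp3-/- library lay above every Igf2bp3+/- library (14.1% of all genes), and for 0 members the reverse held (8.68%). Without Igf2bp3+/- RNA-seq replicate 3, the library with the lowest share of ribosomal protein RNA, the median was 0.13 where that of all genes was 0.01, with 26 members higher and 8 lower before adjustment at the same limit, which 13.4% of all genes passed in either direction.

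Rpl15, a large subunit protein, stood at 30.1, 30.2 and 29.2 FPKM in Igf2bp3+/- and at 43.0, 50.0 and 46.8 FPKM in Igf2bp3-/- RNA-seq. The genotypes were separated by more than the spread of either, and the difference was 0.64 ± 0.09 (limma adjusted p = 0.0353, n = 3 per genotype), a 1.56-fold ratio. The call was kept in 6 of 19 alternatives and lost, with the direction kept, in the others, which include each fit that left out 1 library and the fit with near-identical copies added to the gene. The limma adjusted p ranged from 0.0169 to 0.553 over them, while the difference stayed at 0.59 to 0.70 with 1 library left out and at 0.52 to 0.65 in the other alternatives. Rpl15 has 10 near-identical copies with 27.9% of its FPKM, and 4.25% of its exonic bases overlap Nkiras1 on the opposite strand.

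Among members of at least 1 FPKM, Rps10 and Rpl6 came next. Rps10, a small subunit protein near the beak, stood at 37.6, 32.2 and 31.4 FPKM and at 47.7, 54.2 and 44.2 FPKM, a difference of 0.53 ± 0.11 (limma adjusted p = 0.146). Rpl6, of the large subunit, stood at 38.3, 35.4 and 31.7 FPKM and at 47.2, 52.1 and 51.5 FPKM, a difference of 0.52 ± 0.10 (limma adjusted p = 0.115). The genotypes did not overlap for either gene. Copies carried 44.5% and 49.5% as much FPKM as these genes, and 20.6% of the exonic bases of Rps10 overlap another gene on its own strand.

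Among members of at least 1 FPKM, the small subunit genes Rps29, Rps21 and Rps28 had the most negative values. Rps29 stood at 90.4, 97.7 and 51.0 FPKM and at 68.7, 50.2 and 43.4 FPKM, a difference of -0.53 ± 0.25 (limma adjusted p = 0.351). Its genotypes overlapped because of Igf2bp3+/- replicate 3. Rps21 (-0.35 ± 0.22) and Rps28 (-0.32 ± 0.24) likewise did not pass.

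Coding length also moved with the RNA-seq difference. The median difference was 0.09 for the members with under 400 coding bases, 0.24 for those with 400 to 600 and 0.28 for those with 600 or more, and Spearman's rho over the 74 members was 0.52, while over all 13734 genes with a coding region it was -0.34. Without Igf2bp3+/- RNA-seq replicate 3 the medians were -0.059, 0.14 and 0.26 and rho was 0.69 over the members and -0.22 over all genes. By the longest annotated transcript, with all libraries, rho was 0.22 over 75 members and -0.18 over all genes with a length. The ratio of the median FPKM of the short to that of the long class was 2.00, 1.92 and 1.37 in the Igf2bp3+/- RNA-seq libraries and 1.73, 1.45 and 1.31 in the Igf2bp3-/- libraries, so Igf2bp3+/- replicate 3 resembled the knockout libraries in this respect. In RNC-seq the ratio was 1.95 to 2.32 in all 6 libraries. The part of this length difference in the RNA-seq result was not tested.

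Markers of other testis cells also differed between the genotypes. The 7 Leydig cell markers summed to 14.6 to 21.6 FPKM in Igf2bp3+/- and 46.4 to 52.9 FPKM in Igf2bp3-/- RNA-seq, with 3 of 6 tested higher at a limma adjusted p under 0.05. The 8 Sertoli cell markers summed to 4.78 to 5.85 and 9.31 to 9.47 FPKM (1 of 6 higher), the 7 macrophage markers to 4.85 to 6.16 and 8.17 to 9.30 FPKM (1 of 7) and the 6 peritubular and stromal markers to 2.07 to 2.43 and 4.97 to 6.11 FPKM (1 of 6). In RNA-seq the stromal difference was that of Dcn, without which the sums were 1.37 to 1.42 and 1.38 to 1.62 FPKM. In RNC-seq the stromal sums without Dcn stayed apart, at 0.8055 to 1.056 and 1.393 to 1.587 FPKM. The RNA-seq sums of the other lists stayed apart without their most different gene (3.597 to 4.35 and 9.12 to 10.7 FPKM without Insl3, 1.77 to 2.23 and 2.57 to 2.83 without Clu, 4.47 to 5.64 and 6.38 to 7.67 without Cd74). The 7 spermatogonia markers summed to 7.41 to 10.4 and 7.59 to 9.66 FPKM, the 7 spermatocyte markers to 96.6 to 117 and 110.1 to 136 FPKM, and the 7 round spermatid markers to 950 to 1094 and 1204 to 1419 FPKM. The elongating spermatid markers summed to 8630 to 11240 and 9752 to 9864 FPKM, and no marker of these lists was at 0 in every library. The authors measured mRNAs of this last list (Tnp1, Tnp2, Prm1 and Prm2) in sorted round spermatids, so its sum does not measure carry-over of elongating cells. The ranges of the somatic lists did not overlap in RNC-seq either, where the Leydig cell markers summed to 6.23 to 13.9 and 50.4 to 100.5 FPKM. Separation was not limited to the somatic lists. The round spermatid markers also summed higher in Igf2bp3-/- cells without overlap in both assays, with 1125 to 1423 and 1463 to 1657 FPKM in RNC-seq. Of these 7 markers 0 passed the limma adjusted limit in either assay. The part of these lists in the ribosomal protein values was not tested, and in bulk samples more cells of a type and more RNA per cell cannot be told apart.

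**Figure D4:**
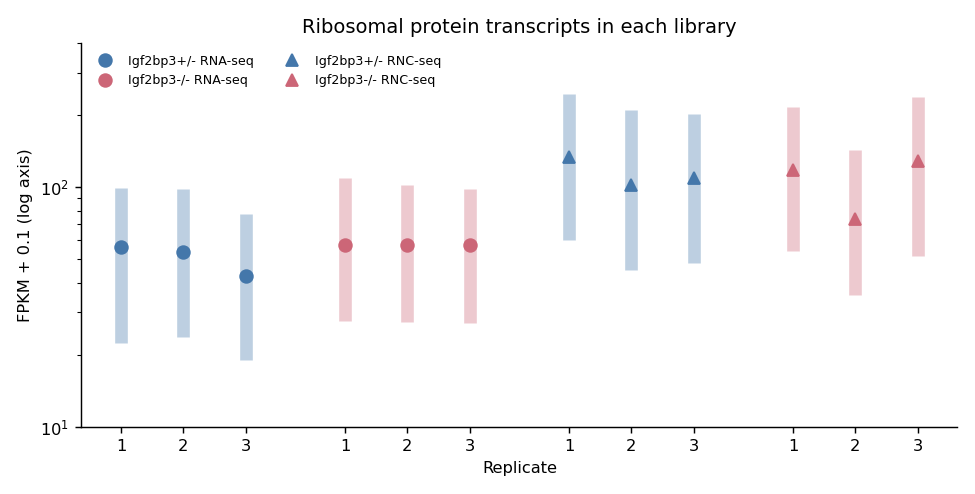
FPKM + 0.1 of the 88 ribosomal protein genes in each of the 12 libraries on a log axis, with the median as a point and the quartiles as a bar (blue, Igf2bp3+/-; red, Igf2bp3-/-; circles, RNA-seq; triangles, RNC-seq). The medians are 42.7 to 57.4 FPKM in RNA-seq and 73.7 to 134 FPKM in RNC-seq, with Igf2bp3+/- RNA-seq replicate 3 and Igf2bp3-/- RNC-seq replicate 2 the lowest of each assay.

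In RNC-seq no ribosomal protein gene passed in either direction. Of 87 members 0 were higher (0.0787% of all 19051 genes tested) and 0 lower (0.0367%) at a limma adjusted p under 0.05, whereas before adjustment 2, Rps4x and Rpl36a, were higher at that limit (5.36% of all genes) and 3, Rpl31, Rpl32 and Rpl32l, were lower (1.12%). Rpl32l is a near-identical copy of Rpl32 (96.0% identity over 99.7%), so their reads may not be separable and Rpl32l is no independent case. The median difference was -0.16, with 66 members negative, where the median of all genes was 0.13 and 65.3% of genes were positive. The genotypes were fully separated for 3 members that were higher (9.44% of all genes) and 4 that were lower (1.85%). Without Igf2bp3-/- RNC-seq replicate 2 the median of the members turned to 0.055, and that of all genes was 0.14.

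The members without overlap were few and varied. Rpl32, of the large subunit, stood at 467, 343 and 342 FPKM in Igf2bp3+/- and at 300.2, 192 and 294 FPKM in Igf2bp3-/- RNC-seq, a difference of -0.56 ± 0.23 (limma adjusted p = 0.756). Rpl31, at the exit of the peptide tunnel, stood at 119, 89.2 and 102 FPKM and at 76.9, 46.0 and 87.1 FPKM, a difference of -0.60 ± 0.25 (limma adjusted p = 0.756). Both were lower in all Igf2bp3-/- libraries, and 25.3% of the exonic bases of Rpl31 and 5.50% of those of Rpl32 overlap another gene on the opposite strand. Rpl4 was also among those that were lower, and those that were higher were the X-linked Rpl10, Rpl36a and Rps4x.

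The X-linked members had positive differences in RNC-seq. Rps4x stood at 0.323, 0.130 and 0.219 FPKM in Igf2bp3+/- and at 0.877, 0.549 and 0.878 FPKM in Igf2bp3-/- cells, a difference of 1.44 ± 0.38 (limma adjusted p = 0.549). Rpl10 stood at 1.83, 2.56 and 2.18 FPKM and at 3.06, 2.88 and 3.40 FPKM, a difference of 0.50 ± 0.25 (limma adjusted p = 0.777). Rpl36a had 1.03 ± 0.47 and Rpl39 0.86 ± 0.64. In RNA-seq the X-linked members did not share a direction, with 0.81 for Rps4x and 0.51 for Rpl10 but -1.12 ± 0.54 for Rpl36a and -0.82 ± 0.52 for Rpl39, none of them past the limma adjusted limit. The sums of somatic markers given above were higher in the same libraries, and their part in these values was not tested. Among abundant members Rpl18 had the highest value, 0.40 ± 0.27, and Rpl10l followed with 0.24 ± 0.24, both with overlap between genotypes. The lowest value, -1.31 ± 0.42, was that of Rpl32l, at 0.831 to 2.43 FPKM in Igf2bp3+/- and 0.324 to 0.856 in Igf2bp3-/- RNC-seq.

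**Figure D5:**
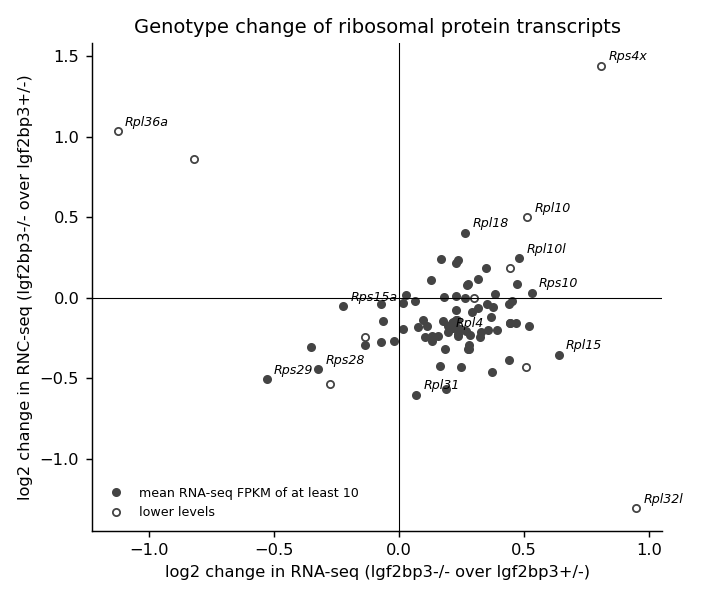
Log2 difference between Igf2bp3-/- and Igf2bp3+/- cells of 87 ribosomal protein genes in RNA-seq (horizontal axis) and RNC-seq (vertical axis), each from its own 6 libraries; filled points have a mean RNA-seq level of at least 10 FPKM. Most points lie at a positive RNA-seq value (74 of 87) and a negative RNC-seq value (66 of 87), and the points farthest from the centre are transcripts of low level.

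The difference in translational efficiency, tested as a genotype by assay interaction in the 12 libraries together, was negative for 78 of 87 members, with a median of -0.37 (0.774-fold), where the median of all 18414 genes was 0.06. Of all genes 55.6% had a positive difference. The members share the same libraries, so their signs are not independent. Taken by replicate number, the median loading of the members was 1.22, 0.92 and 1.33 in Igf2bp3+/- cells. In Igf2bp3-/- cells it was 0.94, 0.34 and 1.06, so the genotypes overlapped. No member passed the limma adjusted limit in either direction (0.00543% of all genes higher and 0% lower). Before adjustment, 13 members were lower at p under 0.05 (1.58% of all genes) and 1, Rpl36a, was higher (5.54%). The median of the members was -0.17 without Igf2bp3-/- RNC-seq replicate 2, -0.24 without Igf2bp3+/- RNA-seq replicate 3 and -0.06 without both, where the median of all genes was 0.11.

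Among members of at least 1 FPKM Rpl15 had the most negative value. In RNC-seq it stood at 136, 92.0 and 101 FPKM in Igf2bp3+/- and at 81.1, 59.3 and 126 FPKM in Igf2bp3-/- cells, with overlap between the genotypes. The difference in translational efficiency was -0.99 ± 0.32 (limma adjusted p = 0.686). Rpl6l, an annotated pseudogene at 2.34 to 4.93 FPKM in RNA-seq, had -0.94 ± 0.35. It is a near-identical copy of Rpl6 (98.7% identity), so its reads and those of Rpl6 may not be separable. The highest values among members of at least 1 FPKM were those of Rps15a (0.17 ± 0.49), Rpl18 (0.14 ± 0.32) and Rpl28 (0.07 ± 0.25), none of them distinguishable from 0 at this spread. Rpl39l had -0.37 ± 0.43 and Rpl10l -0.23 ± 0.28, so for the germ cell paralogs no difference was detectable. By coding length, the medians were -0.26, -0.42 and -0.47 from the short to the long class, and over all genes of these classes they were -0.10, -0.11 and 0.12.

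Genes of the translation apparatus outside the family were set beside it. Of the other ribosomal protein genes, which the name rule misses, 5 were measured, among them Fau, Rack1, Rpl36al and Rps27rt, and all 5 were loaded in Igf2bp3+/- cells and 4 in Igf2bp3-/- cells at a limma adjusted p under 0.05. Rpl36al had a loading of 1.12 ± 0.16 and Rps27rt of 2.03 ± 0.24. Rps27rt is a near-identical copy of Rps27 over part of its transcript (100% identity over 69.0%), so its reads and those of Rps27 may not be separable and it is no independent case. The 15 translation factors and related genes with TOP mRNAs were mixed, with 4 higher and 3 lower and a median of 0.24 in Igf2bp3+/- cells, and 2 higher (Eef1b2 and Naca) and 3 lower (Pabpc1, Eif4b and Nap1l1) in Igf2bp3-/- cells. Eef1b2, an elongation factor subunit (1.02 ± 0.12), Naca, a chaperone at the exit tunnel (1.18 ± 0.15), Eef1a1 and Eif3h were higher, and Pabpc1, the poly(A)-binding protein (-0.91 ± 0.12), Eif4b (-0.91 ± 0.13) and Nap1l1 (-1.32 ± 0.17) were lower.

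The TOP translation genes, regulators and assembly factors were read against the shares of all genes. These were 18.2% higher and 25.2% lower in Igf2bp3+/- cells, and 10.2% and 11% in Igf2bp3-/- cells. Loading falls with coding length over all genes (Spearman's rho -0.54 in Igf2bp3+/- cells), and these lists were not set beside genes of like length. Of 12 tested regulators of TOP mRNAs and mTORC1, 0 were higher and 6 lower in Igf2bp3+/- cells, among them Mtor (-1.63 ± 0.16), Tsc2 (-1.59 ± 0.23) and Larp4 (-1.32 ± 0.22), as well as Larp1 (-1.16 ± 0.13), and 2 of them, Mtor and Larp1, were lower in Igf2bp3-/- cells. Of 20 tested ribosome assembly factors, 3 (Nob1, Nip7 and Sbds) were higher and 4 (Utp20, Ncl, Tsr1 and Efl1) lower in Igf2bp3+/- cells, and 0 and 6 in Igf2bp3-/- cells, with Utp20 (-1.29 ± 0.31), Ncl, the nucleolar protein nucleolin (-1.22 ± 0.28), and Tsr1 (-1.16 ± 0.26) having the largest absolute values. None of the genes of these 4 lists passed the limma adjusted limit between genotypes. At p under 0.05 before adjustment, 6 of 15 TOP translation genes, 3 of 20 assembly factors and 1 of 5 other ribosomal protein genes were higher in Igf2bp3-/- RNA-seq (10.4% of all genes). There 1 of 13 regulators was lower (5.32%), and in RNC-seq 2 of 12 regulators were higher (5.36%). For translational efficiency, 5 of 12 regulators and 1 of 20 assembly factors were higher (5.54% of all genes) and 2 of 15 TOP translation genes lower (1.58%).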

How the data were processed

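Expression values were used as deposited by the authors, in FPKM, with 1 column for each of 12 libraries. The submitters' processing notes name Trim Galore 0.6.6, HISAT2, StringTie 2.1.7 and build GRCm38. The annotation release and the use of strand are not given in the sources used here. The labels and the methods name different library kits and instruments. FPKM hides read counts, so depth is unknown, and a rise of abundant transcripts lowers all others. Replicates are biological by the design text, and the authors' methods isolate cells mouse by mouse.

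From 28668 rows, 25 symbols turned into dates (0.0995% of FPKM) were left out. Values were analysed as log2(FPKM + 0.1), which understates changes of low genes, with limma 3.58.1 in R 4.3.3 (intensity trend, two-sided, Benjamini-Hochberg over all genes tested, limit 0.05, mean FPKM above 0.1). Genotypes were compared within each assay over 6 libraries, assays within each genotype over 6, and translational efficiency by the interaction over 12. The fit was tested on simulated data. Positions, lengths and overlaps came from GENCODE M21, and near-identical copies from BLAST 2.17.0 of its transcripts. Of the 88 genes, 79 have such a copy, and 38 share at least 1% of their exonic bases with another gene, so their values are uncertain to that extent.

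Named genes were the paralogs and parents, the X-linked and stalk members, Rpsa and Rps6, the 5 highest and lowest by level, the 3 highest and lowest in each comparison at a mean of at least 1 FPKM, any member called between genotypes, and, of the lists outside the family, the 3 largest loadings. Rpl36, Rps3a3, Rpl35, Rpl38 and, outside the family, Eef1a1, Eif3h, Pabpc1, Eif4b, Larp1, Nob1, Nip7, Sbds and Efl1 were named for small counts or sequences after their values were seen. The members and lists were chosen with earlier results of these data known. Alternatives covered pseudocounts, filters, scalings, array weights, a replicate block, summed copies and left-out libraries. Coding length without a library and marker sums without 1 gene were added after the data were seen. Protein sequences were not used here, and a few genes that the naming rule covers are not reported here.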

Additional observations from a re-analysis of the deposited data

Results flagged for a closer look

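Rpl4 was noted because the genotypes were fully separated in both assays, in opposite directions. It was higher in Igf2bp3-/- RNA-seq (75.5 to 81.1 FPKM against 67.1 to 70.4) and lower in Igf2bp3-/- RNC-seq (65.8 to 71.2 against 71.7 to 84.2). In RNC-seq the nearest values of the genotypes, 71.2 and 71.7 FPKM, were close. Taken singly, these separations held for 14.1% and 1.85% of all genes, and the share that meets both was not counted. The difference of Rpl4 in translational efficiency was -0.41 ± 0.17 (unadjusted p = 0.0272 and Benjamini-Hochberg adjusted p = 0.686 in limma, n = 3 per group). This difference is computed from the values by which Rpl4 was picked, so it adds no separate support. Gm22455 and Snord16a overlap 7.87% of the exonic bases of Rpl4 on the same strand. Over the alternatives the value stayed between -0.54 and -0.35, and it passed the adjusted limit in 0 of 24.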

How the results depend on the processing

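Loading of the ribosomal protein genes in Igf2bp3+/- cells kept its direction in all 19 alternatives (64 to 81 members higher, 0 lower). Its median fell to 0.85 with the same FPKM sum in each library and to 0.97 with that sum set without CT010467.1. Those scalings moved the median of all genes from -0.10 to -0.43 and -0.34 and the calls over all genes from 3352 higher and 4641 lower to 1872 and 7187 and to 2390 and 6261. Median centring gave 4755 and 3685. The median of the members exceeded that of all genes by 1.30, and by 0.98 to 1.36 over the alternatives. In Igf2bp3-/- cells the count of 52 became 14 with no filter on low values (2.93% of all genes were then higher, 10.2% before), 30 with the same FPKM sum (4.68% of all genes; Rpl4 was then lower, 1 member, also without CT010467.1), and 16 to 74 when 1 library was left out. The excess over all genes was 0.61 to 0.98.

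Between genotypes, the single RNA-seq call (Rpl15) was 0 with no filter, quantile normalization, the same sum without CT010467.1, the replicate block, summed copies, all 12 libraries in 1 fit, Igf2bp3+/- RNA-seq replicate 3 and Igf2bp3-/- RNC-seq replicate 2 left out together (added after the data were seen), and each left-out library (0 to 0). The RNA-seq median ranged from 0.13 to 0.30 over left-out libraries. The RNC-seq median of -0.16 reversed to 0.055 without Igf2bp3-/- RNC-seq replicate 2 and with both of those libraries left out, and ranged from -0.30 to 0.055 over left-out libraries. The translational efficiency median ranged from -0.50 to -0.17, and was -0.06 with both left out.

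Among 76 named gene results, 1358 of 1488 refits kept direction and call, 77 lost the call, 33 gained it and 20 changed sign, none of them for a value that had passed. Signs changed for Rpl39l with both libraries left out (0.33 in RNC-seq, 0.24 for translational efficiency, TE), for Rpl28 TE with median centring (-0.058), for Rpl10 loading in Igf2bp3+/- cells with the same FPKM sum (-0.027) and summed copies (-0.15), for Rpl4 there with the same sum (-0.15, and -0.025 without CT010467.1), and in Igf2bp3-/- cells for Rpl3 (-0.13 and -0.070) and Rplp0 (-0.15 and -0.095, and -0.16 with quantile normalization). Over left-out libraries the ranges were -0.45 to 0.33 (Rpl39l, RNC-seq), and for TE -0.66 to 0.12 (Rpl39l), -0.43 to 0.016 (Rpl10l), -0.16 to 0.64 (Rps15a), -0.13 to 0.44 (Rpl18) and -0.18 to 0.22 (Rpl28). The cause of these changes was not tested.

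Replicate numbers are not stated to pair libraries. By the methods input and polysomes share an extract, but the deviations from the group mean of libraries that share a number in both assays correlated at 0.205, -0.104 and 0.198 in Igf2bp3+/- and -0.0513, 0.165 and 0.126 in Igf2bp3-/- cells. With the replicate block 79 and 52 members were loaded in the 2 genotypes, and 0 passed in RNA-seq, RNC-seq or TE. With unknown depth, no counting error could be set beside low values such as those of Rpl39 and Rpl36a.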
